A study of Mus musculus with 16 samples.

Results

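The 10 genes S100a8, S100a9, Ngp, Camp, Ltf, Mpo, Mmp8, Retnlg, Cxcr2 and Cd177 encode proteins of the granules, cytosol and surface of neutrophils. They were taken by gene name from a table of 49315 mouse genes, and each name matched 1 row. RNA was sequenced in bulk from tail intervertebral discs of 16 mice, with the 4 coccygeal discs of each mouse (Co3/4 to Co6/7) pooled into 1 library. The groups were injured discs of Adam8EQ mice (called mutants here, n = 5), intact discs of Adam8EQ mice (n = 4), injured discs of wild-type mice (n = 4) and intact discs of wild-type mice (n = 3). The series title names the other strain of the comparison as DBA. The kind of injury, the time after it, the nature of the EQ allele, and the age and sex of the mice are not given in the sources used here.

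Neutrophils are short-lived white blood cells that leave the blood for injured tissue, drawn by chemokines that bind the receptor CXCR2. They fill their granules while they mature in the bone marrow, and the transcripts of primary (Mpo) and secondary (Ltf, Camp, Ngp) granule proteins are highest in those marrow stages. Mature neutrophils carry high levels of S100a8 and S100a9 transcripts and express Cxcr2. The healthy disc has no blood vessels in its core. In pooled tissue, fewer cells of a type and less RNA per cell cannot be told apart.

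Values are TPM, a unit that corrects reads for gene length and sequencing depth. A change is the difference between group means of log2(TPM + 1), which understates the change of low genes, and is given ± its standard error (SE). Each change was tested with limma, with p-values adjusted by the Benjamini-Hochberg method over 24188 tested genes and a threshold of 0.05. A gene was tested if 3 or more libraries had 1 TPM or more of it, which 8 of the 10 genes met and Ltf and Mpo did not. Multiplying TPM by gene length gave implied reads, the number of reads that a value stands for, which totalled 10196808 to 24837088 per library. The 5 genes with the fewest, Cd177, Ngp, Ltf, Mpo and Mmp8, had 104, 66, 16, 7 and 172 over all 16 libraries.

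The start regions of 4 of the genes are shown because 3 of these genes (S100a8, S100a9, Cxcr2) passed the test after injury in mutants and the other, Ngp, did not. Each is the 250 bases before the RefSeq start site (GRCm38.p6), read 5′ to 3′ along the gene's strand: S100a8 at chr3:90668821-90669070 (+ strand), S100a9 at chr3:90695722-90695971 (− strand), Cxcr2 at chr1:74153744-74153993 (+ strand) and Ngp at chr9:110419558-110419807 (+ strand). Capitals mark matches, on either strand, to TTGCNNAA (the C/EBP type, a family of factors of granulocyte development) or GAGGAA (the ETS type, which PU.1 binds).
S100a8: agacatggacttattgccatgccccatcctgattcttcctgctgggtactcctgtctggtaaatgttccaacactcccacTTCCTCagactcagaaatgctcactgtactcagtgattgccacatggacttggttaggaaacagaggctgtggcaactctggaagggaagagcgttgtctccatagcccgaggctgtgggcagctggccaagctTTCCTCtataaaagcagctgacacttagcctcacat
S100a9: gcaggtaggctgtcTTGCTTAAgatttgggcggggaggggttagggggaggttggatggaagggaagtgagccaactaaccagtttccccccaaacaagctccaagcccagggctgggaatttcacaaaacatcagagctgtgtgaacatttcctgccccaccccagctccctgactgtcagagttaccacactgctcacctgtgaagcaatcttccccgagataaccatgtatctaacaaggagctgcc
Cxcr2: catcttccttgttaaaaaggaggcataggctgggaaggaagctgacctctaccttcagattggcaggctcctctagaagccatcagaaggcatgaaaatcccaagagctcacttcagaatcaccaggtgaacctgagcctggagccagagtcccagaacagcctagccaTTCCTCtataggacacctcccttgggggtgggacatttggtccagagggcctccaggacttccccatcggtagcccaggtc
Ngp: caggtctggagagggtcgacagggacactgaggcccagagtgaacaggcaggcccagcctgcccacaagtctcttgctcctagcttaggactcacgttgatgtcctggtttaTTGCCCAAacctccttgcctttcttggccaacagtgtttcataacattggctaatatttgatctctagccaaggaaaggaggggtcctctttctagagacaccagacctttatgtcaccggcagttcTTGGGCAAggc
S100a8 held 2 ETS-type matches and Cxcr2 held 1, while S100a9 held 1 C/EBP-type match and Ngp held 2. Over all 10 genes, 5 start regions held the C/EBP-type letters (S100a9, Ngp, Ltf, Mmp8 and Retnlg), against 9.6% of 32851 RefSeq start regions of the same length. The ETS-type letters were in 6 of the 10 (S100a8, Ltf, Mpo, Mmp8, Cxcr2 and Cd177), against 23.3% of all start regions. No match of one kind overlapped a match of the other, and a match is a description of letters. Neither kind separated the genes that passed the test from those that did not.

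After injury in mutants, 3 of the 8 tested genes rose, S100a8, S100a9 and Cxcr2, and none fell. Among all tested genes, 30.8% passed this test, made up of 13.1% of all tested genes as higher and 17.7% as lower. The median change of the 8 was 1.04 on the log2 scale, beside -0.08 over all tested genes. For 4 of the 8, S100a8, S100a9, Cxcr2 and Cd177, each injured mutant was above each intact mutant, and 12% of all tested genes had that pattern. Cxcr2 and Cd177 reached 1 TPM in 6 and 3 libraries, all injured. S100a8 and S100a9 did so in 8 each and Mmp8 in 6, mostly injured. S100a8, S100a9, Cxcr2, Cd177 and Mmp8 thus met the level for testing through injured libraries, which favours a rise. The median and the counts of the 8 are therefore no test of these genes as a set. In injured discs of the wild type, where 0.116% of all tested genes passed, none of the 8 did. That share rests on 28 genes, which became 452 without injured wild-type mouse 1 and 2 without intact wild-type mouse 1, and none of the 8 passed in either case. The level of these genes differed widely between mice of the same injured group, as the plot of the genes by mouse shows.

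**Figure D1:**
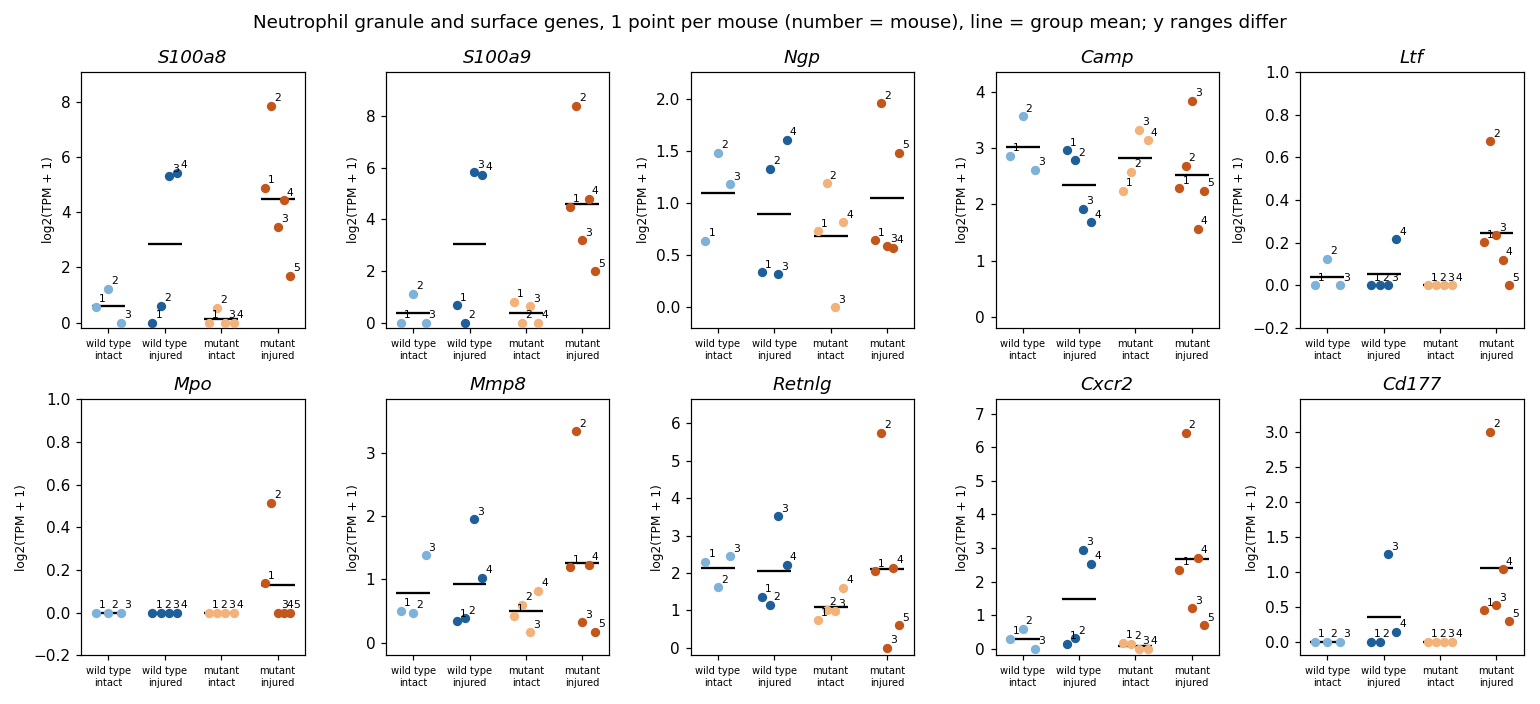
Level of each of the 10 genes, log2(TPM + 1) on the y axis with ranges that differ between panels, for the 4 groups on the x axis. Each point is 1 mouse with its number and the line is the group mean. Injured mutant mouse 2 was highest in 9 of the 10 panels, and wild-type injured mice 3 and 4 lay above mice 1 and 2 for S100a8, S100a9 and Cxcr2.

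S100a8 and S100a9 encode the pair of calcium-binding proteins that form calprotectin, a main protein of the neutrophil cytosol. They are neighbours on chromosome 3 (S100a8 at 90668978 to 90670035 on the + strand, S100a9 at 90692632 to 90695721 on the − strand, GRCm38), 22.6 kb apart. S100a8 was at 28.3, 232, 10.1, 20.6 and 2.26 TPM in injured mutant mice 1 to 5 and at 0, 0.453, 0 and 0 TPM in intact mutants 1 to 4. Each injured mutant was above each intact mutant, and the lowest, mouse 5, rested on 5 implied reads. The change was 4.34 ± 1.20 (limma adjusted p = 0.0147).

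In wild-type mice S100a8 was at 0, 0.534, 38.6 and 42.3 TPM in injured mice 1 to 4 and at 0.489, 1.36 and 0 TPM in intact mice 1 to 3. Injured mice 3 and 4 were far above the intact mice, and injured mice 1 and 2 lay within the intact range. The change, 2.24 ± 1.37, did not pass (limma adjusted p = 0.404).

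S100a9 followed the same mice. It was at 21.5, 336, 8.21, 26.8 and 3.0 TPM in injured mutants 1 to 5 and at 0.775, 0, 0.566 and 0 TPM in intact mutants, groups that did not overlap. The rise was 4.21 ± 1.29 (limma adjusted p = 0.0237). Injured wild-type mice 1 to 4 had 0.613, 0, 55.4 and 51.9 TPM and intact ones 0, 1.20 and 0 TPM, so that mice 3 and 4 again stood apart, and the change of 2.68 ± 1.47 did not pass (limma adjusted p = 0.356). In the 8 libraries where both genes reached 1 TPM, the ratio of S100a9 to S100a8 ran from 0.76 to 1.45, while S100a8 itself ran from 1.36 to 232 TPM.

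Injured mutant mouse 2 held 79.1% of the summed S100a8 TPM of its group and 85.0% of that of S100a9. Without this mouse the S100a8 change in mutants was 3.49 and passed (limma adjusted p = 0.0309). The S100a9 change without this mouse was 3.25 and passed narrowly (limma adjusted p = 0.0494). It also passed without any other 1 injured mutant, but not without intact mutant 2 or without intact mutant 4. Its limma adjusted p-values were up to 0.0587 over the libraries left out.

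Among the surface genes, Cxcr2, the receptor for CXC chemokines that guides neutrophils (chromosome 1, 74153989 to 74161246, + strand), was at 4.08, 85.5, 1.31, 5.56 and 0.617 TPM in injured mutants 1 to 5. Intact mutants had 0.133, 0.103, 0 and 0 TPM. Mouse 2 alone held 88.1% of the injured sum, and the groups did not overlap. Cxcr2 rose by 2.60 ± 0.92 (limma adjusted p = 0.0432), close to the threshold. Wild-type injured mice had 0.105, 0.243, 6.72 and 4.77 TPM and intact ones 0.223, 0.516 and 0 TPM, with the same pair of injured mice above the rest, and the change of 1.19 ± 1.04 did not pass (limma adjusted p = 0.567). Without injured mutant 2 the Cxcr2 change was 1.66 with a limma adjusted p of 0.0540. The call was lost on leaving out any of 10 of the 16 libraries, namely injured mutants 1, 2 and 4 and all 7 intact mice, each in turn.

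CD177, a glycoprotein anchored to the neutrophil membrane (Cd177, chromosome 7, 24743983 to 24760311, − strand), was listed at 0 in all 7 intact libraries. It was at 0.365, 7.04, 0.431, 1.05 and 0.221 TPM in injured mutants 1 to 5. Each injured mutant was thus above each intact one, on 2 to 67.9 implied reads. The change of 1.06 ± 0.46 did not pass (limma adjusted p = 0.0910), but did with a pseudocount of 0.1 (3.20, limma adjusted p = 0.0213). Injured wild-type mice had 0, 0, 1.38 and 0.0984 TPM, so mouse 3 carried nearly all of the signal of its group.

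None of the 3 tested granule genes, Mmp8, Camp and Ngp, passed after injury in either genotype. Mmp8, the neutrophil collagenase that cuts fibrillar collagens (chromosome 9, 7558456 to 7568485, + strand), was at 1.28, 9.10, 0.253, 1.35 and 0.129 TPM in injured mutants and 0.334, 0.519, 0.122 and 0.767 TPM in intact mutants. Injured mutants 1, 2 and 4 were above the intact range and mice 3 and 5 within it. Injured wild-type mice had 0.264, 0.305, 2.86 and 1.04 TPM and intact ones 0.420, 0.389 and 1.60 TPM, and those groups overlapped. Neither change passed, at 0.75 ± 0.54 in mutants (limma adjusted p = 0.313) and 0.14 ± 0.61 in wild-type mice (limma adjusted p = 0.928).

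The cathelicidin gene Camp, the neutrophilic granule protein gene Ngp and the lactoferrin gene Ltf, all 3 of secondary granules, lie in that order on chromosome 9, with gaps of 570.1 kb and 596.3 kb between them (Camp at 109847379 to 109849617 on the − strand, Ngp at 110419747 to 110423012 and Ltf at 111019271 to 111042767 on the + strand). Camp was present in all 16 libraries, at 3.87, 5.43, 13.3, 1.96 and 3.72 TPM in injured mutants, 3.74, 4.98, 8.97 and 7.77 TPM in intact mutants, 6.76, 5.86, 2.78 and 2.21 TPM in injured wild-type mice and 6.27, 10.8 and 5.12 TPM in intact wild-type mice. It was the 1 gene of the 10 in which injured mutant mouse 2 was not the highest of all mice, and its intact and injured ranges overlapped in both genotypes. In the wild type, Camp was lowest in the 2 mice with the most S100a8. Its changes were -0.29 ± 0.41 in mutants (limma adjusted p = 0.624) and -0.68 ± 0.47 in wild-type mice (limma adjusted p = 0.464).

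Ngp was low in each group, at 0.565, 2.89, 0.501, 0.487 and 1.80 TPM in injured mutants and 0.662, 1.29, 0 and 0.761 TPM in intact mutants. Wild-type mice had 0.262, 1.52, 0.247 and 2.06 TPM when injured and 0.556, 1.80 and 1.27 TPM when intact. These values rest on 66 implied reads in all, and no group stood apart from another. The changes were 0.36 ± 0.38 in mutants (limma adjusted p = 0.501) and -0.20 ± 0.43 in wild-type mice (limma adjusted p = 0.836).

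Ltf and Mpo were at the edge of detection. Ltf, which encodes the iron-binding lactoferrin, was at 0.150, 0.597, 0.178, 0.0862 and 0 TPM in injured mutants, 0.162 TPM in injured wild-type mouse 4 and 0.0911 TPM in intact wild-type mouse 2, and was listed at 0 in the other 9 libraries. Mpo, the myeloperoxidase gene of primary granules (chromosome 11, 87793581 to 87804413, + strand), was at 0.101 and 0.430 TPM in injured mutants 1 and 2 and at 0 in the other 14 libraries. All libraries together held 16 implied reads of Ltf and 7 of Mpo, and the antisense gene Gm11505 overlaps Mpo, so that its reads cannot be told apart if strand was not used in counting.

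Retnlg encodes a resistin-like protein secreted by neutrophils (chromosome 16, 48872621 to 48874496, + strand). It was at 3.12, 52.7, 0, 3.43 and 0.516 TPM in injured mutants and 0.665, 1.03, 0.972 and 2.04 TPM in intact mutants, so mouse 2 was far above and mice 3 and 5 below all intact mutants. Injured wild-type mice had 1.58, 1.22, 10.4 and 3.68 TPM and intact ones 3.91, 2.07 and 4.47 TPM. Its changes were 1.02 ± 0.87 in mutants (limma adjusted p = 0.402) and -0.06 ± 0.99 in wild-type mice (limma adjusted p = 0.984). Retnlg was thus detected in intact discs, on 1 to 6.8 implied reads per library.

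**Figure D2:**
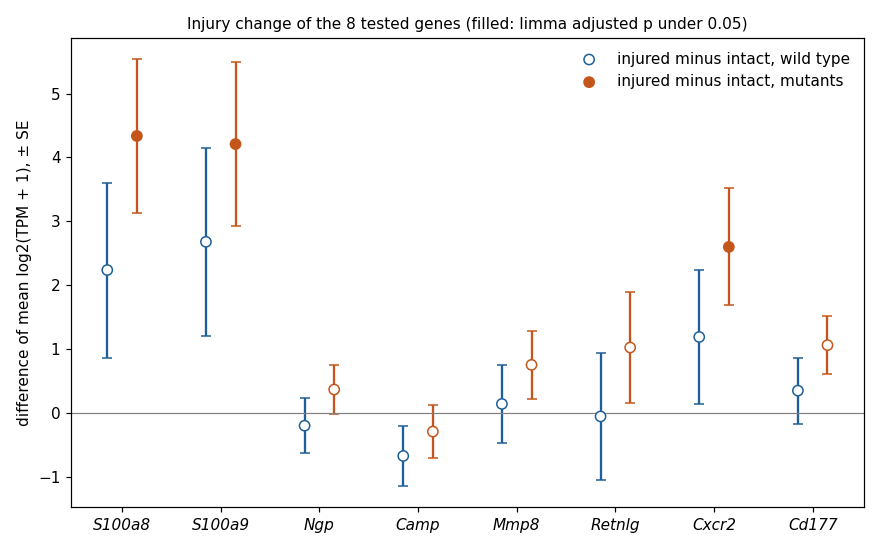
Difference between injured and intact group means of log2(TPM + 1), with bars of ± 1 SE, for the 8 tested genes in the wild type (blue) and in mutants (orange). Filled points passed the limma test, which were S100a8, S100a9 and Cxcr2 in mutants. The mutant point lies above the wild-type point for each gene, but the 2 sets of points were not shown to differ.

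The spread between mice was counted against the intact libraries of the same genotype. Injured mutants 1 to 5 exceeded all intact mutants in 6, 7, 5, 6 and 5 of the 8 tested genes. Injured wild-type mice 1 to 4 exceeded all intact wild-type mice in 0, 0, 6 and 5 of them. Over all tested genes, the share above every intact library of the genotype ran from 26.3% to 35.5% in these 9 mice, and it was 29.8% and 30.1% in wild-type mice 1 and 2. Wild-type mice 1 and 2 thus had no such gene among the 8 while their share over all genes was like that of the other mice. The counts of the other mice carry the limit given above, that S100a8, S100a9, Cxcr2, Cd177 and Mmp8 met the level for testing through injured libraries.

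Genotype was compared within injured and within intact discs, with Adam8 itself given first as the mutated gene. Adam8, a membrane metalloprotease gene (chromosome 7, 139978932 to 139992562, − strand), was at 68.4, 264, 39.4, 48.3 and 16.2 TPM in injured mutants and 3.52, 5.59, 66.3 and 54.9 TPM in injured wild-type mice. In intact discs it was at 1.55 ± 0.948 TPM (SD, n = 4) in mutants and 1.51 ± 0.235 TPM (SD, n = 3) in the wild type. Adam8 was thus transcribed in both genotypes, and its RNA level does not check the allele. It rose by 4.56 ± 0.81 after injury in mutants (limma adjusted p = 0.00156), with the same mice high as for S100a8.

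In injured discs the mean TPM of the mutants was higher than that of the wild type for all 8 tested genes, but none passed, and 0.918% of all tested genes did. These 222 genes became 2253 without injured wild-type mouse 3 and 7 without injured wild-type mouse 2, and none of the 8 passed in either case. The sign turned without injured mutant 2 for Ngp, Mmp8 and Retnlg (log2 differences of -0.077, -0.19 and -0.87) and without injured mutant 3 or injured wild-type mouse 4 for Camp. It also turned for Ngp without injured wild-type mouse 1 or 3 and for Retnlg without injured wild-type mouse 1 or 2. S100a8 was at 58.6 ± 97.3 TPM (SD, n = 5) in injured mutants and 20.4 ± 23.3 TPM (SD, n = 4) in injured wild-type mice, a difference of 1.63 ± 1.20 on the log2 scale (limma adjusted p = 0.468). Cd177 had the lowest adjusted p of the 8 in this comparison, 0.397 by limma, at a difference of 0.71 ± 0.46. The ranges of the injured groups overlapped for each gene. The median difference of the 8 was 0.52 on the log2 scale, beside -0.09 over all tested genes.

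In intact discs no gene of the 8 differed between genotypes by the test, with limma adjusted p-values of 1, where 0.0165% of all tested genes passed. The largest difference was that of Retnlg, which was at 1.18 ± 0.596 TPM (SD, n = 4) in intact mutants and 3.48 ± 1.26 TPM (SD, n = 3) in the intact wild type, a log2 difference of -1.04 ± 0.99. Each of the 3 intact wild-type mice had more Retnlg than each of the 4 intact mutants, the closest pair being 2.07 and 2.04 TPM. Among all tested genes, 3.41% were lower in each intact mutant than in each intact wild-type mouse.

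Whether injury acted differently in the genotypes was tested by the interaction term. It was positive for all 8 genes, from 0.38 for Camp to 2.10 ± 1.83 for S100a8, with limma adjusted p-values from 0.785 to 0.890, and 0% of all tested genes passed, while 1979 had an unadjusted p under 0.05. That S100a8, S100a9 and Cxcr2 passed in one genotype alone was therefore not shown to be a difference between genotypes.

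Genes of other neutrophil roles moved in the same libraries, as the map of levels by library shows. Of 21 genes of mature neutrophil surface and signalling, 18 were tested, and 13 rose after injury in mutants and none fell, with a median change of 3.29. Among all tested genes, 13.1% rose in that comparison and 17.7% fell. Csf3r, the G-CSF receptor, was at 25.0, 297, 11.5, 31.9 and 7.03 TPM in injured mutants and at most 0.515 TPM in intact ones (change 4.57 ± 1.08, limma adjusted p = 0.00662). Clec4d, a C-type lectin receptor, rose by 5.09 ± 1.01, and Selplg, the ligand of selectins, rose by 3.89 ± 0.57 (limma adjusted p-values of 0.00270 and 0.000657). Itgb2, the beta chain of leukocyte integrins, and Il1r2, the decoy receptor of interleukin-1, rose by 4.60 ± 0.77 and 3.17 ± 0.93. Csf3r, Clec4d and Il1r2 did not reach 1 TPM in any intact mutant (highest 0.515, 0.983 and 0.330 TPM). They met the level for testing outside that group, which favours a rise. The count and median of the 18 are therefore no test of these genes as a set. In the wild type, where 0.116% of all tested genes passed, none of the 18 did. Csf3r was there at 0.887, 1.54, 73.7 and 35.6 TPM in injured mice 1 to 4, the division between mice seen for S100a8. Without injured mutant mouse 2, 13 of the 18 passed in mutants, with a median change of 2.51, where 6637 of all 24188 tested genes passed in either direction. With all libraries, where 13.1% of all tested genes rose, 7 of 9 macrophage and monocyte markers also rose in mutants after injury, with a median change of 3.002. The part of macrophages in the levels of the 18 genes was not tested, so their calls are no measure of neutrophils alone.

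Ly6g, which marks mouse neutrophils in flow cytometry, was low. It reached 1.56 TPM in injured mutant 2, was between 0.183 and 0.325 TPM in injured mutants 1, 3 and 4 and in injured wild-type mouse 3, and was listed at 0 in the other 11 libraries.

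**Figure D3:**
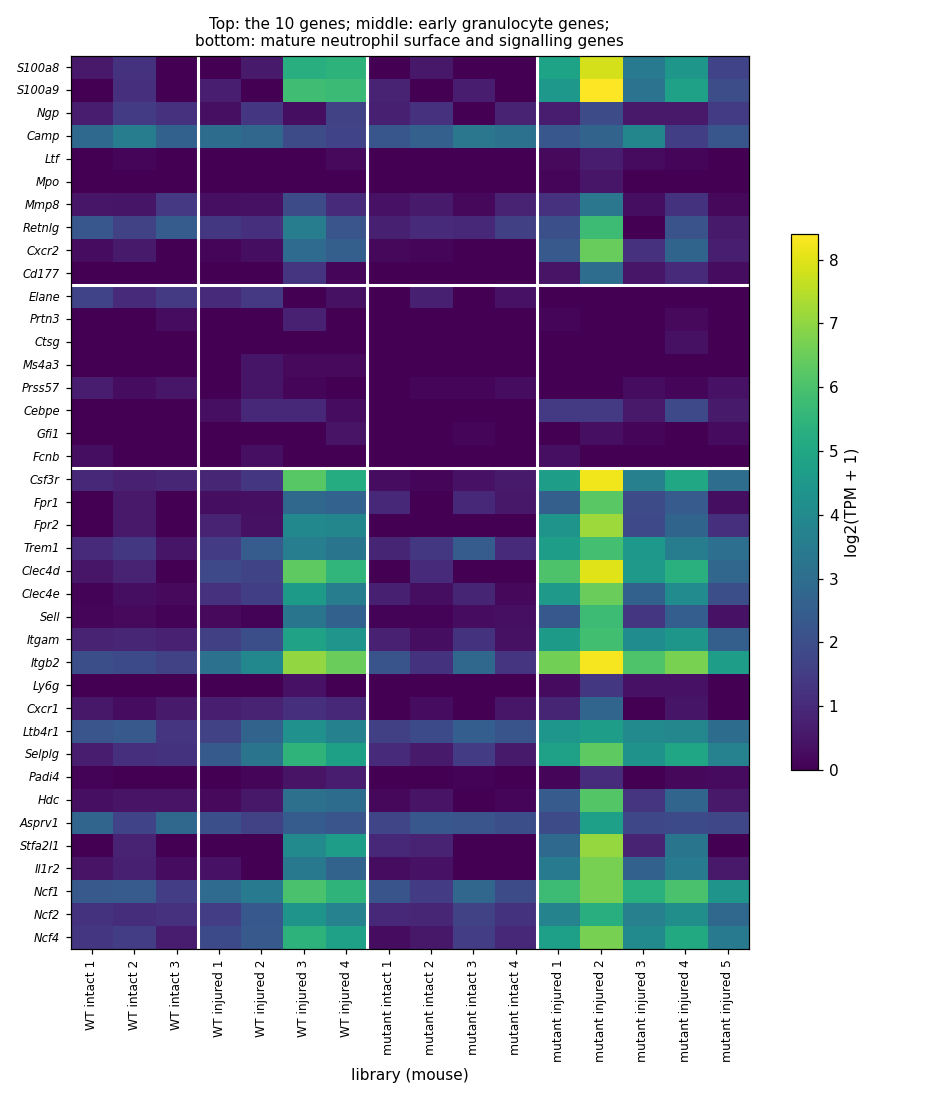
Level of each gene (rows) in each of the 16 libraries (columns, grouped by white lines), as log2(TPM + 1) by colour. The top block holds the 10 genes, the middle one the early granulocyte genes and the bottom one the mature neutrophil surface and signalling genes. Injured mutant 2 and injured wild-type mice 3 and 4 are the brightest of their groups in the bottom block, and the middle block is dark in all libraries. Injured mutants 1 and 4, with bottom-block sums of 448.8 and 418.7 TPM, were above injured wild-type mouse 4 at 394.5 TPM.

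Early granulocyte genes, which precursors in the marrow express, were near 0. Of 8 genes, 2 reached the level for testing. Elane, the neutrophil elastase gene, was listed at 0 in all 5 injured mutants and was at 0.255 ± 0.327 TPM (SD, n = 4) in intact mutants, 0.739 ± 0.727 TPM (SD, n = 4) in the injured and 1.64 ± 0.596 TPM (SD, n = 3) in the intact wild type, and its change in mutants did not pass. Cebpe, a transcription factor of late granulocyte maturation, was at 1.67, 1.66, 0.495, 2.64 and 0.506 TPM in injured mutants and at 0 in all 7 intact libraries (change 1.17 ± 0.27, limma adjusted p = 0.00554). It reached 1 TPM only in injured mutants 1, 2 and 4. Cebpe was thus tested only through the group where it was high, which favours a rise. It was at 0.259, 0.897, 0.973 and 0.226 TPM in injured wild-type mice 1 to 4, and that change did not pass (limma adjusted p = 0.303). The list's summed level was 0.804 to 3.22 TPM in injured mutants and 0 to 0.794 TPM in intact mutants, which did not overlap, and 1.02 to 3.57 TPM in injured and 1.25 to 3.07 TPM in intact wild-type mice.

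Of 13 other granule genes, 11 were tested, with a median change of 2.26 in mutants. Where 13.1% of all tested genes rose in mutants, 7 of the 11 did, Lcn2, Chil3, Cybb, Hp, Mmp25, Slpi and Lyz2. Several of these, among them Lyz2, the lysozyme gene, and Cybb, the catalytic subunit of the phagocyte oxidase, are also expressed by macrophages. Lcn2, which encodes the iron-siderophore binder lipocalin-2, was at 4427, 1729, 4042, 1573 and 1387 TPM in injured mutants and between 83.7 and 182 TPM in intact ones. It rose by 4.42 ± 0.44 in mutants (limma adjusted p = 0.000117) and by 3.89 ± 0.50 in wild-type mice (limma adjusted p = 0.00687), the 1 gene of these 11 that passed there. The wild-type call was lost in 3 of 29 alternatives, without intact wild-type mouse 1, without intact wild-type mouse 2 and with only the wild-type groups fitted (limma adjusted p-values of 0.0608, 0.0704 and 0.107). In mutants Lcn2 did not follow S100a8, since injured mutants 1 and 3 were the highest. Injured wild-type mice 1 and 2, with 478 and 723 TPM, were above all intact discs, unlike for S100a8. Injured wild-type mice 3 and 4 were higher still, at up to 1805 TPM, as for S100a8. Mmp9, the gelatinase of tertiary granules, was at 14.6 ± 25.3 TPM (SD, n = 5) in injured mutants and 0.184 ± 0.140 TPM (SD, n = 4) in intact mutants, but did not pass (limma adjusted p = 0.0915). The count of 7 fell to 5 without injured mutant 2 or intact mutant 4, to 4 without intact mutant 1 or intact mutant 2, and was 9 without injured mutant 5. Chil3, Mmp25 and Slpi did not reach 1 TPM in any intact mutant (highest 0, 0 and 0.263 TPM). They met the level for testing outside that group, which favours a rise, so this count is no test of the list.

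Of 6 ligands that act on neutrophils, 5 rose in mutants after injury, where 13.1% of all tested genes did. Cxcl1, Cxcl2, Cxcl3, Cxcl5 and Ppbp encode chemokines that bind CXCR2, and they rose by 6.59 ± 1.23, 5.68 ± 1.23, 4.74 ± 0.65, 5.10 ± 1.05 and 2.65 ± 0.68. The other one, Csf3, which encodes the growth factor G-CSF, was at 2.66 ± 3.60 TPM (SD, n = 5) in injured and 1.17 ± 0.914 TPM (SD, n = 4) in intact mutants and did not pass (limma adjusted p = 0.612). Cxcl5 was at 88.6, 238, 17.6, 26.2 and 7.07 TPM in injured mutants, at 0.515, 1.99, 66.8 and 28.3 TPM in injured wild-type mice and at most 0.337 TPM in the intact discs of either genotype. None of the 6 passed in the wild type, where 0.116% of all tested genes did. Cxcl2, Cxcl3 and Cxcl5 did not reach 1 TPM in any intact mutant (highest 0.783, 0.116 and 0.217 TPM). They met the level for testing outside that group, which favours a rise, so the count of 5 is no test of this list.

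Cxcl3 was the 1 gene of these ligands that passed between the genotypes in injured discs. It was at 41.2, 69.7, 31.8, 11.0 and 12.1 TPM in injured mutants and at 0.183, 0.423, 9.04 and 8.55 TPM in injured wild-type mice, and each mutant was above each wild-type mouse (difference 2.94 ± 0.65, limma adjusted p = 0.0490). This call was near the threshold and was lost in 24 of 29 alternatives, over which the difference ran from 2.28 to 3.94 and the limma adjusted p from 0.0109 to 0.231. Among all tested genes, 0.905% were higher in each injured mutant than in each injured wild-type mouse.

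Among markers of other cell types, those of macrophages were high in the same mice. Beside the counts of these lists, 13.1% of all tested genes rose in mutants, 17.7% fell, and 0.116% passed in the wild type. Of 9 macrophage and monocyte markers, 7 rose in mutants, and their summed level was 364 to 2019 TPM in injured mutants, 116 to 180 TPM in intact mutants, 162 to 1435 TPM in injured wild-type mice and 115 to 135.1 TPM in intact wild-type mice. Injured mutant 2 and wild-type mice 3 and 4 were the highest of their groups here too, and the part of macrophages in the levels of the 10 genes was not tested. Of 6 tested erythroid markers of 10 in the table, none passed in mutants (lowest limma adjusted p = 0.0690) or in wild-type mice (lowest limma adjusted p = 0.608). The hemoglobin gene Hbb-bs was between 29.1 and 839 TPM, and the summed erythroid level was 185 to 1185 TPM in injured mutants, 70.0 to 275 TPM in intact mutants, 115 to 1474 TPM in injured and 268 to 732 TPM in intact wild-type mice. The part of blood in the discs in these levels was not tested.

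Of 7 B-cell precursor markers 1 was tested and did not pass, with summed levels between 1.29 and 5.50 TPM over all libraries. Of 5 megakaryocyte and platelet markers 4 were tested and 1, Pf4, rose in mutants (5.41 ± 0.78, limma adjusted p = 0.000620). The 3 eosinophil markers were below the level for testing, with a summed level of at most 1.52 TPM. Among keratinocyte markers, Krt5, which defines basal keratinocytes, was at most 0.134 TPM and listed at 0 in all 7 intact libraries. This did not hold for the whole list. Krt14 and Krt10 had means of 0.786 and 19.1 TPM in intact mutants, against 0.103 and 12.8 TPM in injured mutants. The list's summed level was 17.97 to 25.98 TPM in intact and 12.8 to 15.3 TPM in injured mutants. In the wild type it was 21.95 to 25.2 TPM in intact and 7.968 to 23.22 TPM in injured mice, which overlapped. Of the 3 tested of 6, 1, Krt1, fell in mutants. None of the 6 tested of 7 skeletal muscle markers passed.

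**Figure D4:**
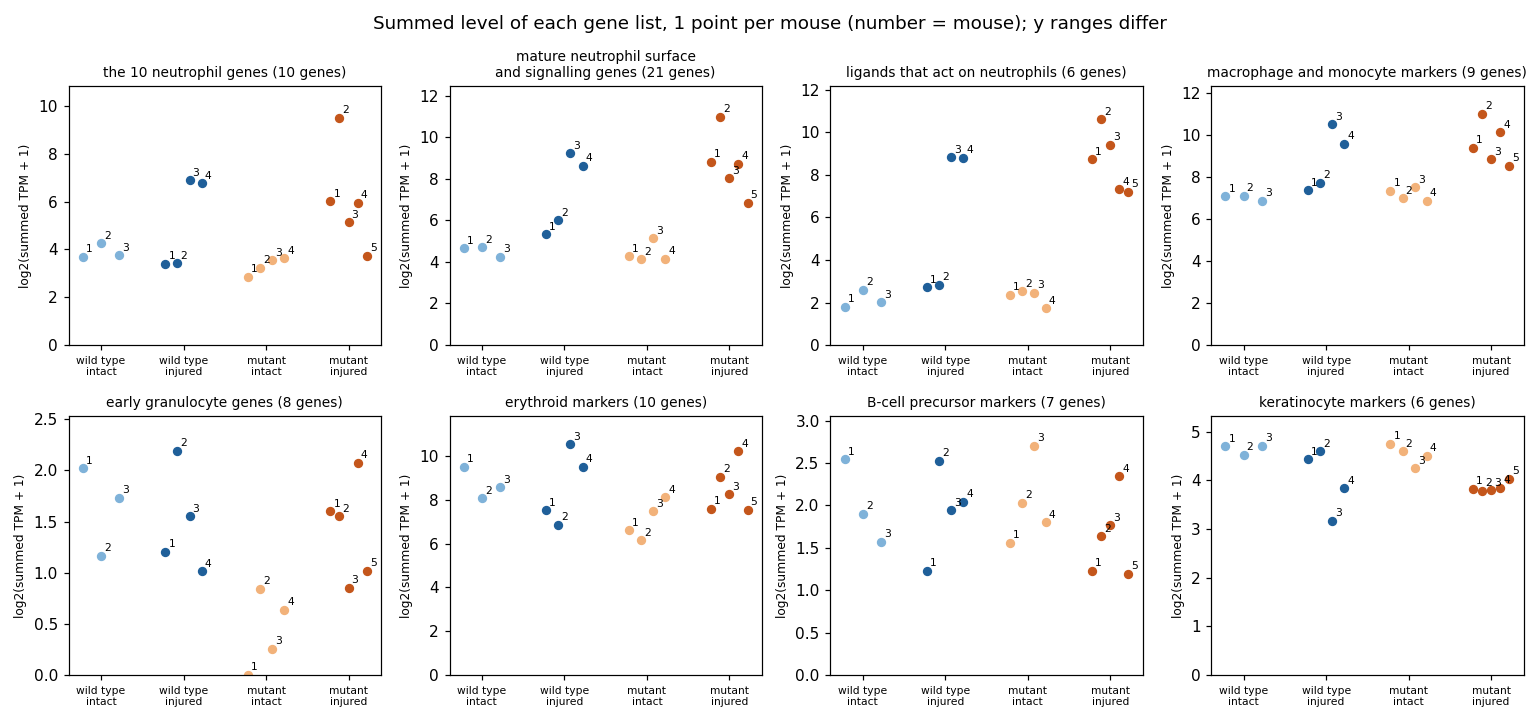
Summed level of each gene list, log2(summed TPM + 1) on the y axis with ranges that differ between panels, for the 4 groups on the x axis. Each point is 1 mouse with its number. Injured mutant 2 and injured wild-type mice 3 and 4 are the highest of their groups in the neutrophil, ligand and macrophage panels, and the early granulocyte and B-cell precursor panels stay under 6 TPM.

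In intact mutants most of the 9 disc and cartilage markers were high, but Matn3 and Col9a1 were low, at means of 1.47 and 4.49 TPM. Acan, the main proteoglycan gene of cartilage and disc, had group means from 5478 to 6423 TPM, and Col2a1, the cartilage collagen gene, from 2025 to 4754 TPM. The summed level of 9 disc and cartilage markers was 5164 TPM in injured mutant 2, against 11330 to 13930 TPM in the other injured mutants, and 6517 TPM in injured wild-type mouse 3, against 14730 to 19960 TPM in the others of its group. Both are among the mice with the most S100a8, with Acan at 2426 and 3130 TPM and Col2a1 at 658 and 1052 TPM, whereas injured wild-type mouse 4, the other wild-type mouse high in S100a8, had the highest disc sum of all. The part of this difference in the levels of the 10 genes was not tested. Of 9 disc and cartilage markers in mutants, Hapln1 rose and Comp, Cnmd and Krt19, the last a nucleus pulposus marker, fell.

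The genes outside the 10 whose profile over the 16 libraries was closest to that of S100a8 were found by the root-mean-square difference of profiles scaled to mean 0 and SD 1, where 0 is identical. They were Ccl4 at 0.12, Cd300lf at 0.15, Acod1 at 0.16, and Slc15a3 and Hk3 at 0.18 each. Of the other 9 genes, S100a9 was at 0.17, Cxcr2 at 0.31, Cd177 at 0.59, Mmp8 at 0.67, Retnlg at 0.79, Ngp at 1.15 and Camp at 1.63. S100a9 was thus closer than Slc15a3 and Hk3. For Ngp the nearest genes outside the 10 were Traj46 at 0.73, Mir7020 at 0.75, Spop at 0.79, Sycp2 at 0.80 and Rpl39-ps at 0.81. All 16 points come from the same libraries, so such likeness includes what the libraries share.

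Library names in the labels split the mutants into those named A8 (injured mice 1 and 2, intact mice 1 and 2) and those named M (injured mice 3, 4 and 5, intact mice 3 and 4), and what the names stand for is not given in the sources used here. With only A8 mutants the S100a8 change was 6.10 ± 1.81 and passed narrowly (limma adjusted p = 0.0497), while S100a9 and Cxcr2 did not (limma adjusted p-values of 0.0685 and 0.0513). With only M mutants S100a8 was at 3.21 ± 1.56 (limma adjusted p = 0.233), S100a9 at 3.01 ± 1.66 and Cxcr2 at 1.54 ± 0.86, and none passed. All wild-type libraries are named D, so naming and genotype cannot be told apart. When implied reads were fitted with voom in place of TPM, a choice made after seeing the data, S100a8, S100a9 and Cxcr2 missed the threshold in mutants (limma adjusted p-values of 0.0614, 0.0832 and 0.0734) and Cd177 passed (0.0198).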

How the data were processed

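Discs were placed in RNAlater, RNA was extracted with Trizol and RNeasy columns, and libraries were made after depletion of ribosomal RNA, per the labels' protocols. The molecule field of the labels reads polyA RNA, and which of the steps applied was not settled here. The authors deposited 1 table of TPM values for the 16 mice. The submitters' processing notes name bcl2fastq 2.20 and GRCm38, and the aligner, counter, annotation and use of strand are not given in the sources used here.

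From the TPM values, log2(TPM + 1) of genes that reached 1 TPM in 3 or more libraries was fitted with limma 3.58.1 in R 4.3.3 (lmFit, eBayes with a trend), with 1 mean per group over all 16 libraries and no covariate. SEs are moderated ones. All p-values are two-sided and measure the spread between mice. Implied reads used exon lengths of GENCODE on GRCm38, and 94.1% to 95.0% of values under 20 reads lay within 0.05 of a whole number. TPM keeps no total, so depth was inferred in this way. The fit was tested on simulated data. Where a gene name had more than 1 row, the row with the higher sum was used.

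The 10 genes and all lists were chosen with earlier results of these data known. Named were the 10 genes, Adam8, list members and the 5 other genes closest in profile to S100a8 and to Ngp. Alternatives covered the pseudocount, filter, scaling, weights, library naming, replicate block and each library left out, and voom was added after seeing the data. Protein sequences were not used here.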

Additional observations from a re-analysis of the deposited data

Results flagged for a closer look

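A mouse was marked where its gap to the nearest other mouse of its group, divided by the range of the group, was above Dixon's 95% critical value (0.829 for 4 mice, 0.710 for 5). Of 26 gene and group pairs tested on TPM, 10 were marked, where chance marks about 1 in 20 if values are normal, which TPM with zeros are not. Injured mutant mouse 2 stood above its group in 7 of them: S100a8 at 232 TPM, S100a9 at 336 TPM, Cxcr2 at 85.5 TPM, Retnlg at 52.7 TPM, Mmp8 at 9.10 TPM, Cd177 at 7.04 TPM and Mpo at 0.430 TPM. On the log2 scale used for the tests, 5 of the 10 were marked, of which Cd177 and Mpo were those of mouse 2, and S100a8, S100a9, Cxcr2, Retnlg and Mmp8 were not. The other 4 injured mutants had a mean of 15.3 ± 11.5 TPM (SD, n = 4) of S100a8 and 2.89 ± 2.33 TPM (SD, n = 4) of Cxcr2. Mouse 2 was also the highest injured mutant in summed macrophage markers, at 2019 TPM, and in Adam8, at 264 TPM, and had 13236135 implied reads, near the median of 13298920. It was the lowest injured mutant in summed disc and cartilage markers, at 5164 TPM against 11330 to 13930 TPM, and in summed muscle markers, at 22.2 TPM against 63.2 to 548 TPM.

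In injured wild-type mice, mouse 3 stood above the others in Cd177 at 1.38 TPM and mouse 4 in Ltf at 0.162 TPM, the latter on 2 implied reads. Intact mutant mouse 2 stood above its group in S100a8 at 0.453 TPM, on 1 implied read. In this group for S100a8, and in injured wild-type mice for Ltf, all other mice were at 0, which marks any value above 0.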

How the results depend on the processing

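Over 1085 alternatives of single changes, 1019 kept their direction and side of the threshold, 23 lost a call, 2 gained one and 41 changed sign. Leaving out a library outside the groups compared left the change itself as it was, so its direction there was fixed in advance. Most of these alternatives also concern genes that did not pass. All calls lost were in mutants after injury: S100a8 in 2 of 29 alternatives, S100a9 in 5 of 29 and Cxcr2 in 16 of 29. The count of genes that passed there, 3, became 1 with A8 mutants only (S100a8), 0 with M mutants only and 1 with voom (Cd177), and ran from 1 to 3 when 1 library was left out. Cd177 was gained with a pseudocount of 0.1 and with voom. In the other 4 comparisons 0 of the 8 genes passed under each alternative run. The cause was not tested.

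No gene that passed changed sign. In mutants after injury, Camp was 0.073 with A8 mutants only and Retnlg -0.38 with M mutants only. In the wild type, Ngp was 0.040 with sample weights, and with 1 library left out Mmp8 ran from -0.20 to 0.43 and Retnlg from -0.54 to 0.25. Between genotypes in injured discs, Retnlg was -0.57 with a pseudocount of 0.1, -0.27 with sample weights, -0.53 with naming as a covariate, -1.15 with M mutants only and -0.37 with voom. Ngp there was -0.024 with sample weights, -0.043 with the covariate and -0.019 with M mutants only, and Mmp8 was -0.043 with the covariate and -0.35 with M mutants only. With 1 library left out, Ngp ran from -0.077 to 0.39, Camp from -0.14 to 0.43, Mmp8 from -0.19 to 0.67 and Retnlg from -0.87 to 0.57. In intact discs S100a9 was 0.23 with a pseudocount of 0.1, 0.014 with quantile normalization and 0.034 with A8 mutants only, and Camp was 0.0093 with the covariate and 0.21 with M mutants only. With 1 library left out there, S100a9 ran from -0.20 to 0.37, Camp from -0.39 to 0.081 and Mmp8 from -0.44 to 0.011. The interaction with M mutants only was -0.054 for Mmp8 and -0.32 for Retnlg.

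With the replicate number as a block, 3 genes passed in mutants and 0 in the other comparisons. Deviations of same-numbered samples correlated from -0.22 to 0.15 over 21 pairs (1 pair over 0.1), which alone cannot exclude a pairing. The library names in the labels carry a different number in each of the 16 libraries. Ltf and Mpo, with 16 and 7 implied reads in all, were below the level for testing.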
